A study of Mus musculus with 12 samples.

Results

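The 10 genes described here encode chaperones of the endoplasmic reticulum (ER) and factors of the unfolded protein response: Dnajb9, Hspa5, Hsp90b1, Canx, Calr, Pdia4, Herpud1, Xbp1, Atf4 and Ddit3. The rule names them by symbol and uses no measured value; all 10 were found among the 17358 genes of the table. It comes from RNA-seq of perivascular macrophages, the macrophages along blood vessels of the mouse brain, with 5 libraries of aged animals (18 months) and 7 of young adults (3 months). The series text gives the strain as C57BL/mice and calls the libraries biological replicates. No treatment, genotype, sex, sort marker or number of animals or cells per library is named, so p-values measure only the spread between these libraries.

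Secreted and membrane proteins fold in the ER with the help of chaperones such as BiP (Hspa5), GRP94 (Hsp90b1), calnexin (Canx) and calreticulin (Calr). When unfolded proteins build up, BiP leaves the sensors IRE1, PERK and ATF6. IRE1 splices Xbp1 mRNA, PERK slows translation while favouring that of Atf4, and cleaved ATF6 enters the nucleus; together they raise chaperones, degradation factors such as Herpud1 and, under lasting stress, the pro-apoptotic factor CHOP (Ddit3). Macrophages rely on this system for secretion and for surface receptors. Gene counts do not show Xbp1 splicing, ATF6 cleavage or the translation of Atf4.

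Promoter sequences are shown first, because the chaperone genes are textbook targets of the ER stress response element (ERSE), CCAAT and CCACG separated by any 9 bases. RefSeq promoter windows of GRCm38.p6, from 250 bases before to 50 bases after each annotated start, were found for all 10 genes. ERSE was searched on both strands, as were ERSE-II (ATTGG, 1 base, CCACG), the UPRE core TGACGTGG and the C/EBP-ATF element TGATGNAAT. An exact ERSE lay in the windows of 4 of the 10 genes, Hspa5, Hsp90b1, Canx and Calr, against 0.119% of all 32851 windows. An exact ERSE-II lay in 1, Herpud1, against 0.0365% of all windows. Neither the exact UPRE core (0.676% of windows) nor the exact letters TGATGNAAT (0.965%) occurred in any of the 10. Near matches, such as a C/EBP-ATF element with another last base, were not counted, so their absence is not shown. The ERSE and ERSE-II matches did not overlap one another. The 6 matches are listed 5′ to 3′ on the strand of the motif, with the letters the motif fixes in capitals.
Hspa5: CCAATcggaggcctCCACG
Hsp90b1, far site: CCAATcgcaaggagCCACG
Hsp90b1, near site: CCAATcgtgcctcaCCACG
Canx: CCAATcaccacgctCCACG
Calr: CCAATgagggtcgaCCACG
Herpud1: ATTGGgCCACG

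The match of Hspa5 lay 65 to 47 bases before the annotated start and that of Herpud1 52 to 42 bases before it, both on the gene's own strand. Hsp90b1 had a match 212 to 194 bases before its start and another, on the opposite strand, 107 to 89 bases before it. Canx had its match 145 to 127 bases before the start, and Calr, on the opposite strand, 162 to 144 bases before it. Whole windows follow for Hspa5 and Canx, which carry a match and had unadjusted p-values under 0.05 in the age comparison, for Hsp90b1 with its 2 matches, and for Dnajb9, which had the largest age difference of the 10 and no exact match. Each window is printed on the gene's strand, with the fixed letters of matches in capitals. They lie at chr2:34771840-34772139 (plus strand, Hspa5), chr11:50325624-50325923 (minus strand, Canx), chr10:86705395-86705694 (minus strand, Hsp90b1) and chr12:44210019-44210318 (minus strand, Dnajb9).
Hspa5: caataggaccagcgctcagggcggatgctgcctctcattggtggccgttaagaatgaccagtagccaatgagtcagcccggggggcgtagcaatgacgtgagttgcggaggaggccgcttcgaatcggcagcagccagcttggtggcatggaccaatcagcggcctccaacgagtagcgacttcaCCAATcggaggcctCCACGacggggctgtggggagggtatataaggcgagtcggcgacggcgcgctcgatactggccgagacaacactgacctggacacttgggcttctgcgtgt
Canx: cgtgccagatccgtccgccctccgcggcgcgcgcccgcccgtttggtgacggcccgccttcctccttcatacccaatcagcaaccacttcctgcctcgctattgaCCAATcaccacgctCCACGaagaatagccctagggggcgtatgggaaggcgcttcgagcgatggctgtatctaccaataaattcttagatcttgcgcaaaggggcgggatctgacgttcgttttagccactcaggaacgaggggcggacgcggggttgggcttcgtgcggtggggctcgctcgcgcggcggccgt
Hsp90b1: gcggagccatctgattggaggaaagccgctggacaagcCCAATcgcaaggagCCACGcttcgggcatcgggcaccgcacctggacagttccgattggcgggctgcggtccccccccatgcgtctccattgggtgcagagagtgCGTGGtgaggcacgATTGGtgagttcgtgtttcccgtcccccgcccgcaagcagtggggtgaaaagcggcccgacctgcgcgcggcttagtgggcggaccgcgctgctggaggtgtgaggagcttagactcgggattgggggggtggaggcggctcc
Dnajb9: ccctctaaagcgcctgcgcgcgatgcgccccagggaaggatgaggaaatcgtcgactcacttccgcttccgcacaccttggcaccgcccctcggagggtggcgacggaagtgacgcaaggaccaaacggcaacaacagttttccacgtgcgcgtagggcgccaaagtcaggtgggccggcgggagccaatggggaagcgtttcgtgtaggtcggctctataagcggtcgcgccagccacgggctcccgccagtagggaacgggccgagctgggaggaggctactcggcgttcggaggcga

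**Figure D1:**
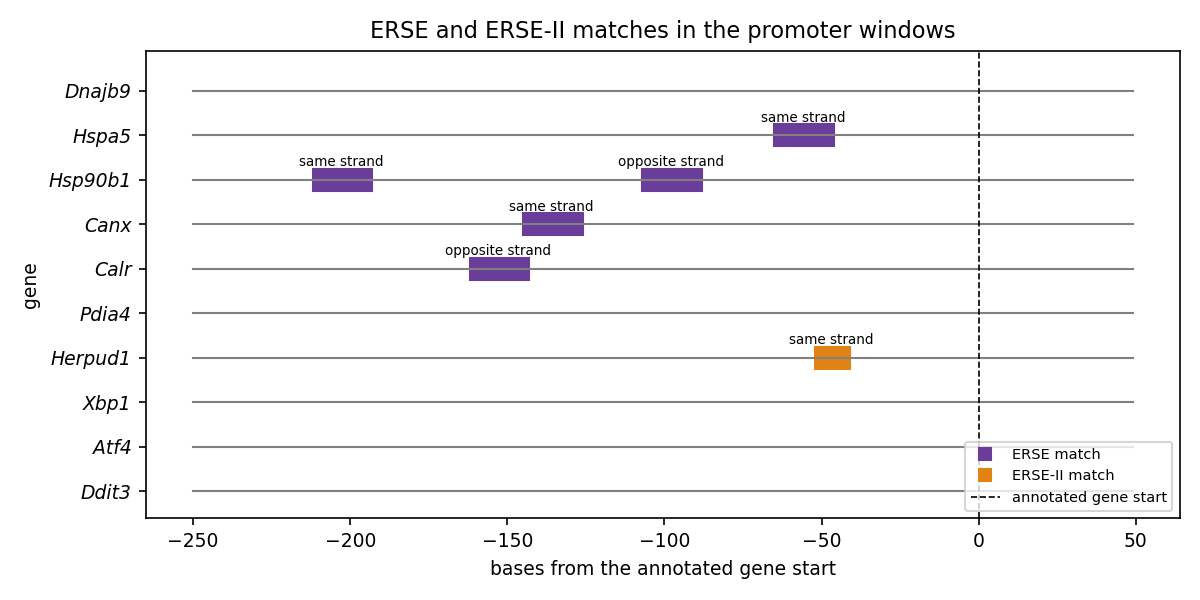
Position of exact ERSE (purple) and ERSE-II (orange) matches in the promoter windows of the 10 genes; the horizontal axis is the distance in bases from the annotated gene start (dashed line). Hsp90b1 holds 2 matches, Hspa5, Canx, Calr and Herpud1 hold 1 each, and 5 genes hold none.

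A match describes these letters only. Over all tested genes with an ERSE in their window, 10 of 14 had a positive log2 fold change (aged over young), with a median of 0.44. Over all 7758 tested genes with a window, 49.5% were positive and the median was −0.01. With the 4 genes described here left out, 7 of 10 were positive (median 0.52). These 10 include Syvn1 (log2 fold change 0.85, edgeR adjusted p = 0.999), an ubiquitin ligase of the ER membrane. They also include Pdia6 (−0.48, edgeR adjusted p = 0.999), a disulphide isomerase. Only 1 of these 10 had an unadjusted edgeR p under 0.05. None of the 14 passed the test. Canx, Hspa5 and Hnrnpa3, an RNA-binding protein (0.72, edgeR adjusted p = 0.828), 3 of the 14, had an unadjusted p under 0.05, against 459 of the 7758. For the other motifs, 7 of 9 tested genes with an ERSE-II were positive (median 0.21), 48 of 85 with the UPRE core (median 0.17) and 19 of 40 with the C/EBP-ATF element (median −0.04).

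Libraries held between 23214836 and 30628787 estimated counts. The 10 markers of perivascular macrophages, such as Mrc1 and Cd163, were all tested and summed to between 10597 and 17013 CPM (counts scaled to the TMM-normalised library size) in aged and between 11313 and 21001 in young libraries. Microglia markers were also present (4056 to 5948 against 3993 to 7171). Summed markers of choroid plexus epithelium were at 256 to 1314 CPM in aged and 63.2 to 177 in young libraries without overlap, with 4 of 8 tested, all 4 positive, and Aqp1 under 3 counts in all libraries together. Plasma and B cell markers, from cells known for strong ER stress signalling, summed to 2.2 to 196 against 22.1 to 286 CPM, with Mzb1 and Ms4a1 under 3 counts over all libraries. Aged libraries 1, 3 and 4 stood apart on the first principal component (76.2 to 98.1, against −70.3 to 26.9 in the other 9). They and young library 1 had the fewest genes with at least 5 counts (8013 to 8229, against 8358 to 10266 elsewhere). Each age difference of the 10 genes is given with and without those 3 aged libraries. The second fit keeps only aged libraries 2 and 5 in the aged group, and these same data set the 3 apart. For a gene highest in those 3, a smaller estimate follows from leaving them out. The part of marker or library differences in the age differences was not tested. Fewer cells of a type and less RNA per cell cannot be told apart in such libraries.

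All 10 genes passed the filter on low counts. Per transcript length, Hspa5 was the most abundant, at 702 ± 244 FPKM (fragments scaled to transcript length and library size, SD over n = 12), and lay above the next gene, Atf4 (343 ± 128), in all 12 libraries. Atf4 and Canx (301 ± 63.3) could not be ordered, since Atf4 was higher in 7 of 12 libraries. Canx lay above Dnajb9 (192 ± 135) in 10 of 12. From Dnajb9 down through Herpud1 (169), Hsp90b1 (156), Ddit3 (133), Xbp1 (121) and Calr (121), neighbours overlapped and changed order in at least 3 of 12 libraries. Pdia4 was the lowest in every library, at 23.7 ± 17.1 FPKM.

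The age comparison asks which of these genes differ between aged and young macrophages. None of the 10 passed edgeR's quasi-likelihood test at an adjusted p under 0.05 (Benjamini-Hochberg, called the edgeR adjusted p from here on), where 0.0105% of the 9550 tested genes (1, Ttr) did. At an unadjusted p under 0.05 there were 3, Dnajb9, Hspa5 and Canx, all higher in aged libraries, against 5.97% of all tested genes. No gene of the 10 had groups without overlap, against 0.597% of all tested genes. Of the log2 fold changes 5 were positive and 5 negative (median 0.04, against −0.01 over all tested genes). DESeq2 and edgeR with bias-adjusted estimation (legacy=FALSE) each called 1 of the 10, Dnajb9, where they called 1.27% and 0.398% of all genes. Without aged library 2 edgeR also called Dnajb9, and 0.755% of all genes.

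**Figure D2:**
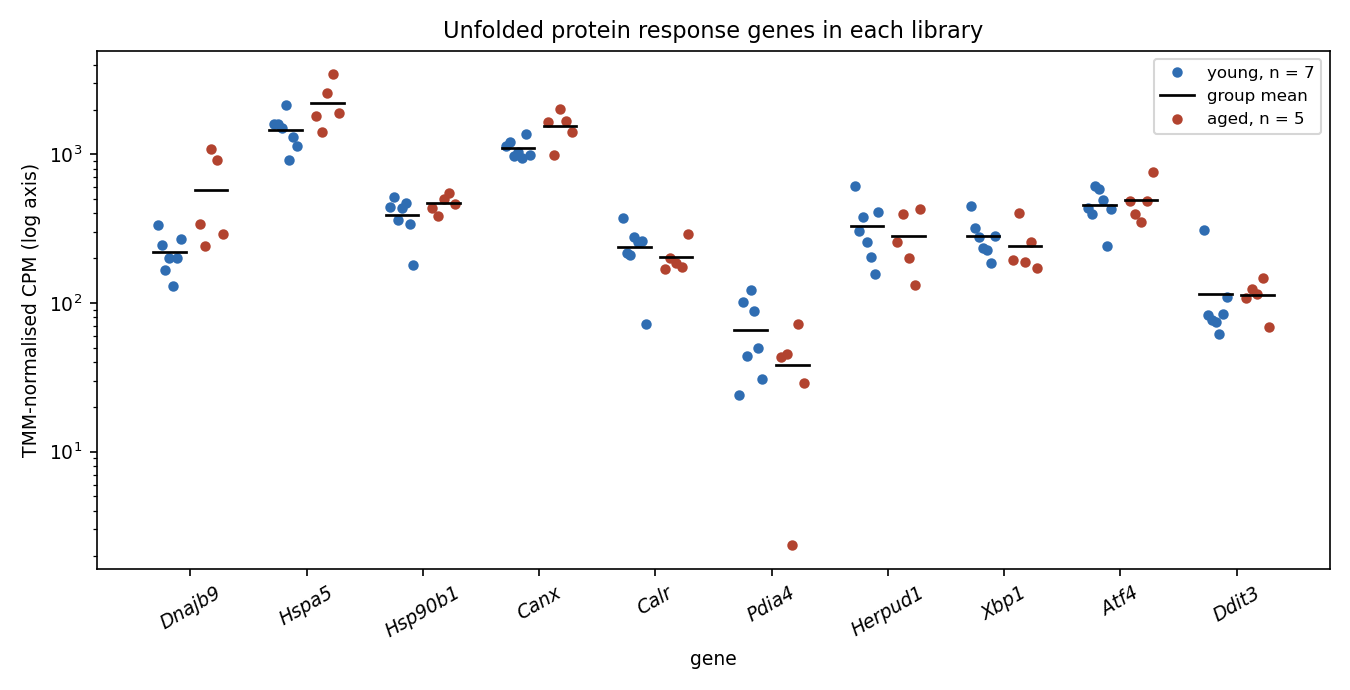
TMM-normalised CPM (log axis) of the 10 genes in each library, young in blue (n = 7) and aged in red (n = 5), with group means as black bars. Dnajb9 reaches 1093 and 915 CPM in 2 aged libraries, and Pdia4 is at 2.35 CPM in 1 aged library.

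Dnajb9 (Entrez 27362, chromosome 12 from 44205897 to 44210068, minus strand) encodes ERdj4, a co-chaperone of BiP that aids the removal of misfolded proteins and is a classical target of spliced XBP1. Aged libraries 1 to 5 held 340, 241, 1093, 915 and 293 normalised CPM. Young libraries ranged from 131 to 337 with a median of 201. Aged libraries 3 and 4 were far above all young ones, aged library 1 was level with the highest young library, and aged libraries 2 and 5 lay inside the young range. That highest young library was young library 1 (337). It and aged libraries 1, 3 and 4, the highest in normalised CPM, also had the fewest genes with at least 5 counts. The part of this in the age difference was not tested. In FPKM, aged libraries 1 (174) and 5 (183) also lay above the highest young library (166). The log2 fold change was 1.38 ± 0.36 (SE, edgeR adjusted p = 0.277). Dnajb9 passed with DESeq2 (adjusted p = 0.0389), with legacy=FALSE (0.0472) and without aged library 2 (0.0461). Over all alternatives its adjusted p ran up to 1. The estimate was 0.26 without aged libraries 1, 3 and 4, and 0.98 without aged library 3. Choroid plexus markers were at 609, 1133, 527, 1314 and 256 CPM in aged libraries 1 to 5, and at 63.2 to 177 in young ones. Their part in the difference of Dnajb9 was not tested.

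Hspa5 (Entrez 14828, chromosome 2 from 34772090 to 34776529, plus strand) encodes BiP, the main HSP70 chaperone of the ER and the regulator of the stress sensors. Its levels in aged libraries 1 to 5 were 1819, 1417, 2563, 3450 and 1887 normalised CPM. Young libraries ran from 913 to 2154 with a median of 1497. Aged libraries 3 and 4 exceeded every young library, and the other 3 lay within the young range. Its log2 fold change was 0.61 ± 0.24 (SE, edgeR adjusted p = 0.614), 0.38 without aged library 4 and 0.17 without aged libraries 1, 3 and 4. In the deposited FPKM values, which carry no TMM factor, young library 4 (1077) lay above aged library 3 (876) and below aged library 4 (1193). The locus overlaps Rabepk on the opposite strand, and the library method does not mark strand.

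Canx (Entrez 12330, chromosome 11 from 50293957 to 50325673, minus strand) encodes calnexin, the membrane-bound lectin chaperone that holds newly glycosylated proteins. It was at 1651, 992, 2028, 1679 and 1420 normalised CPM in aged libraries 1 to 5, and between 945 and 1367 (median 1039) in young ones. Every aged library but aged library 2 lay above the highest young library. Canx had the narrowest spread among young libraries, a coefficient of variation of 14.1%, against up to 76.7% for Ddit3. Its log2 fold change was 0.51 ± 0.19 (SE, edgeR adjusted p = 0.576), and 0.13 without aged libraries 1, 3 and 4. The fit without aged library 2 gave 0.63 (adjusted p = 0.117).

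Calr (Entrez 12317, chromosome 8 from 84842088 to 84846931) encodes calreticulin, the soluble partner of calnexin. Aged libraries 1 to 5 held 168, 200, 186, 175 and 291 normalised CPM, and young libraries 72.1 to 374 with a median of 259. Every aged library lay inside the young range. The age estimate on the log2 scale, −0.23 ± 0.31, had an edgeR adjusted p of 0.999 and was 0.03 without aged libraries 1, 3 and 4. The 2 lectin chaperones had estimates of opposite sign with all 12 libraries; that contrast was not tested.

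Hsp90b1 (Entrez 22027, chromosome 10 from 86690841 to 86705444), the ER member of the HSP90 family and a chaperone of integrins and Toll-like receptors, was at 437, 383, 499, 552 and 462 normalised CPM in aged libraries 1 to 5. Young libraries ran from 180 to 513 (median 432). Only aged library 4 exceeded the young range (log2 fold change 0.25 ± 0.23, edgeR adjusted p = 0.999). In FPKM no aged library did so, with the highest at 192 against 203 in young library 5. Young library 7 was the lowest for both Hsp90b1 and Calr. Without that library the estimate for Hsp90b1 was 0.13, and without aged libraries 1, 3 and 4 it was 0.10.

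Pdia4 (Entrez 12304, chromosome 6 from 47796141 to 47813512) is a protein disulphide isomerase. It was at 43.4, 45.7, 2.35, 72.4 and 28.8 normalised CPM in aged libraries 1 to 5, and at 24.1 to 123 (median 50) in young ones. Aged library 3, with 47 counts, stood below all others, although Dnajb9 and Canx were highest there. Pdia4 had a log2 fold change of −0.78 ± 0.65 (edgeR adjusted p = 0.999), −0.50 without aged library 3, −1.14 without aged library 4 and −0.83 without aged libraries 1, 3 and 4.

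Herpud1 (Entrez 64209, chromosome 8 from 94386429 to 94395371) encodes an ER membrane protein that organises the degradation of misfolded proteins. Its values in aged libraries 1 to 5 were 257, 399, 202, 133 and 430 normalised CPM, and young libraries ran from 156 to 610 (median 303). Aged library 4, in which Hspa5 and Hsp90b1 were highest, was the lowest for Herpud1, and the others lay inside the young range. For Herpud1 the log2 fold change was −0.22 ± 0.35 (edgeR adjusted p = 0.999) and 0.32 without aged libraries 1, 3 and 4.

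**Figure D3:**
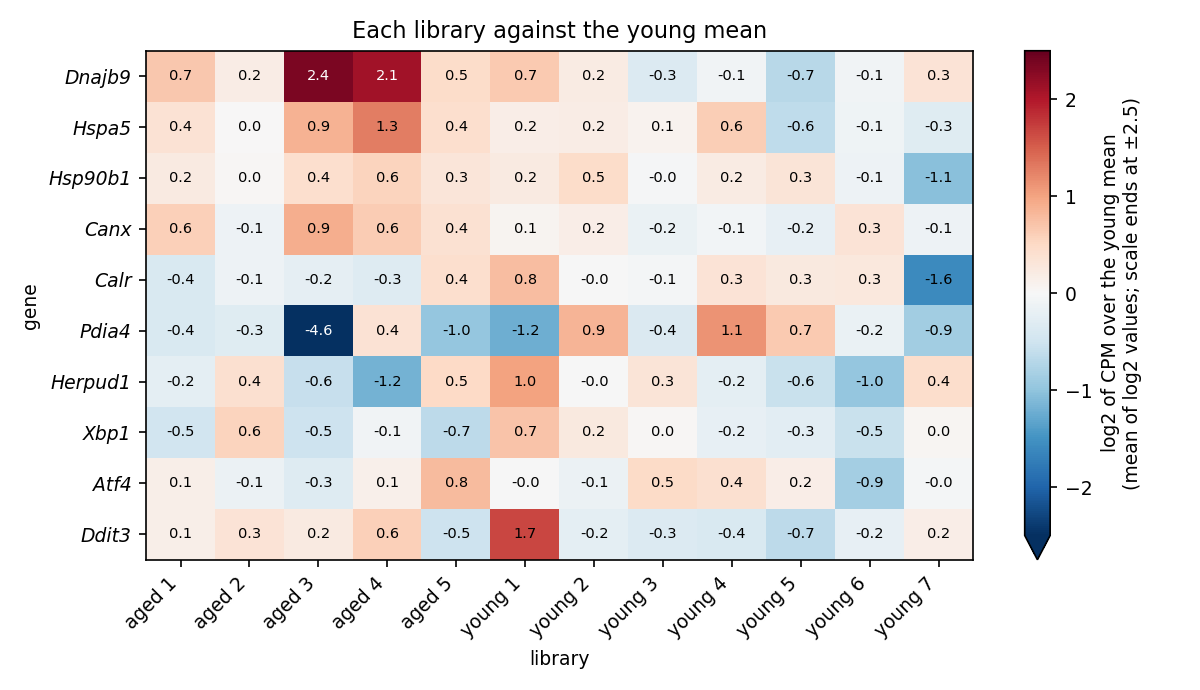
Log2 level of each gene (rows) in each library (columns) relative to the mean of the 7 young libraries on the log2 scale, from red (higher) to blue (lower); the colour scale ends at 2.5 either way. Aged libraries 3 and 4 are red for Dnajb9 (2.36 and 2.1) and Hspa5 (0.86 and 1.29) and blue for Herpud1 (−0.59 and −1.19), and young library 1 is red for Ddit3 (1.67).

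Among the transcription factors, Xbp1 (Entrez 22433, chromosome 11 from 5520641 to 5525993) was at 196, 401, 190, 256 and 173 normalised CPM in aged libraries 1 to 5. Young libraries ran from 186 to 447 (median 277). Aged library 5 lay just below the young range, and aged library 2 near its top. In FPKM, aged library 5 (89.8) lay inside the young range, and aged libraries 1 (83.4) and 3 (73.5) below its lowest value (86.6). For Xbp1 the log2 fold change was −0.21 ± 0.27 (edgeR adjusted p = 0.999), −0.46 without aged library 2 and 0.03 without aged libraries 1, 3 and 4. Counts of Xbp1 join the spliced and unspliced forms.

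Atf4 (Entrez 11911, chromosome 15 from 80255184 to 80257545), the effector of PERK and of amino acid shortage, was at 488, 397, 352, 483 and 757 normalised CPM in aged libraries 1 to 5 and at 243 to 612 (median 437) in young ones. Only aged library 5 lay outside the young range. The log2 fold change of 0.12 ± 0.25 (edgeR adjusted p = 0.999) became −0.11 without that library and 0.32 without aged libraries 1, 3 and 4.

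Ddit3 (Entrez 13198, chromosome 10 from 127290793 to 127296291) was at 108, 124, 115, 147 and 68.8 normalised CPM in aged libraries 1 to 5. Young library 1 held 311 and the other 6 young libraries 62.2 to 110. For Ddit3 the log2 fold change was −0.03 ± 0.40 (edgeR adjusted p = 0.999), 0.42 without young library 1 and −0.24 without aged libraries 1, 3 and 4. The locus overlaps Mbd6 and Mars1 on the opposite strand, so reads from shared exons cannot be assigned by strand. Young library 1 was also the highest of all 12 for Calr (374), Herpud1 (610) and Xbp1 (447). It was the highest young library for Dnajb9 (337) and the lowest young one for Pdia4 (24.1). Its Hspa5 (1590) and Atf4 (437) lay between those of other young libraries. The PERK-pathway gene Trib3, a known CHOP target named here after its values were seen, had 642 counts in young library 1 and fewer than 10 in each of the other 11.

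**Figure D4:**
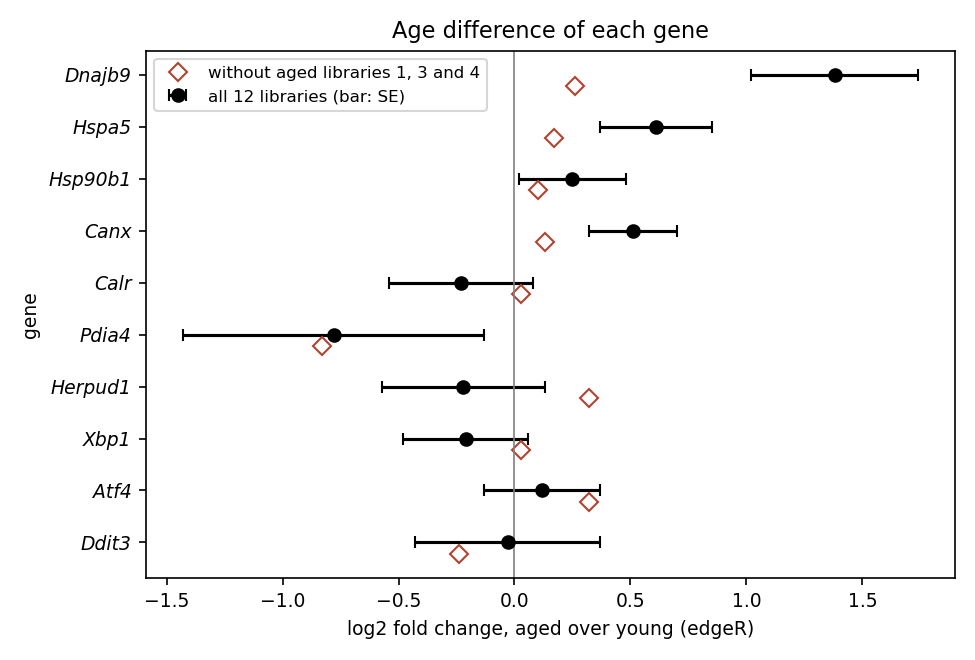
Log2 fold change, aged over young, of each gene by edgeR with all 12 libraries (black, bars are SE) and without aged libraries 1, 3 and 4 (open diamonds). Dnajb9 moves from 1.38 to 0.26, Hspa5 from 0.61 to 0.17 and Canx from 0.51 to 0.13, while Calr, Herpud1 and Xbp1 change sign.

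Further genes of the pathway were described in 5 lists with 118 different genes, of which 102 were tested. None passed edgeR's test. At an unadjusted p under 0.05, 5 of the 102 were higher and 5 lower in aged libraries, against 368 higher and 202 lower among all 9550 tested genes (5.97% in all). DESeq2 called 1, Shmt2, as lower, where it called 1.27% of all genes. Shmt2 passed the filter on low counts only through young libraries, so only a lower level in aged libraries could be called for it. Of the 102, 55 had positive log2 fold changes (median 0.02, against −0.01 for all tested genes).

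Among 11 tested sensors and relays, 5 were positive (median −0.12). The sensor gene Atf6 had 19.2 ± 14.4 CPM in the aged group and 27.0 ± 13.6 in the young one (SD, n = 5 and n = 7, as for the levels that follow). The eIF2alpha phosphatase subunit Ppp1r15b was at 84.0 ± 60.8 against 56.4 ± 21.2, and Eif2s1, which encodes eIF2alpha itself, at 169 ± 118 against 152 ± 62.2. Nfe2l2, the antioxidant factor NRF2 and the most abundant of the list, was at 241 ± 91.4 against 294 ± 51.0. Ern1, which encodes IRE1, reached 10 counts in only 1 library and was not tested.

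Of 23 ATF4 and CHOP targets 11 passed the filter on low counts, which 9550 of all 17358 genes passed. Among the 12 that did not, Chac1 never exceeded 1 count and Asns, the asparagine synthetase, had at least 10 counts only in young library 4 (612). Of the 11 tested, 6 were positive (median 0.06). Atf3, a stress-induced factor that other signals also raise, had 1051 ± 330 CPM against 778 ± 213 (log2 fold change 0.43), and the amino acid transporter chain Slc3a2 at 322 ± 75.6 against 264 ± 26.0. Shmt2, a mitochondrial enzyme of serine metabolism, had 0 to 8 counts in aged and 0 to 340 in young libraries (edgeR adjusted p = 0.507 and 0.0332 by DESeq2; such low counts make the fitted fold depend on the prior count). The pro-apoptotic Bcl2l11 was at 9.25 ± 11.6 against 17.9 ± 11.5. Summed immediate-early markers, which include genes raised by cell dissociation, were at 17955 to 21428 CPM in aged and 13605 to 25757 in young libraries.

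In the folding list 13 of 28 tested genes were positive (median −0.05). Kdelr2, a receptor that returns escaped chaperones to the ER, had the smallest p, at 1089, 541, 1384, 1487 and 753 normalised CPM in aged libraries 1 to 5 against 384 to 836 (median 491) in young ones. Aged libraries 1, 3 and 4 lay above the young range, topped by young library 1, and aged libraries 2 and 5 inside it. Its log2 fold change was 0.90 ± 0.27 (edgeR adjusted p = 0.352) and 0.19 without those 3. Ppib, the ER cyclophilin, was at 237 ± 60.2 against 370 ± 61.3 (log2 fold change −0.64), and Erp29 at 91.7 ± 45 against 148 ± 46.2. Tmx3, a membrane-bound disulphide isomerase, was at 122 ± 44.2 against 96.7 ± 21.8, and the most abundant gene, Pdia3, the isomerase that works with calnexin and calreticulin, at 970 ± 247 against 836 ± 243.

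Of 23 tested genes of ER-associated degradation, 15 were positive (median 0.08). Sel1l, the scaffold of the HRD1 ligase, was at 171, 81.5, 109, 131 and 80.1 normalised CPM in aged libraries 1 to 5 and at 16.5 to 82.8 (median 60.7) in young ones. Aged libraries 1, 3 and 4 lay above the young range, topped by young library 1, and the other 2 just below its top. The log2 fold change of Sel1l was 1.04 ± 0.40 (edgeR adjusted p = 0.589), and 0.53 without aged libraries 1, 3 and 4. Os9, a lectin that delivers glycoproteins to the same ligase, was at 8.61 ± 6.71 against 32.5 ± 17.5 (log2 fold change −1.92), and the segregase cofactor Ufd1 at 25 ± 14.5 against 50.3 ± 26.9. Derl2, the most abundant, was at 298 ± 189 against 202 ± 101.

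Genes of translocation and N-glycosylation were divided 17 positive to 13 negative (median 0.01). Rpn2, a subunit of the oligosaccharyltransferase, was at 396 ± 184 against 215 ± 44.6 normalised CPM with 4 of 5 aged libraries above all young ones (log2 fold change 0.88 ± 0.27, edgeR adjusted p = 0.38, and 0.40 without aged libraries 1, 3 and 4). Sec62, a translocation factor, was at 383 ± 122 against 252 ± 36.6 (log2 fold change 0.60, and 0.16 without those libraries). Ssr4, of the translocon-associated complex, was at 178 ± 19.2 against 294 ± 85.2, and Ostc, another transferase subunit, at 169 ± 48.2 against 269 ± 77.6. The difference of Ssr4 hardly moved without aged libraries 1, 3 and 4 (log2 fold change −0.68 in place of −0.72). Spcs2, of the signal peptidase and the most abundant here, was at 630 ± 251 against 497 ± 191.

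**Figure D5:**
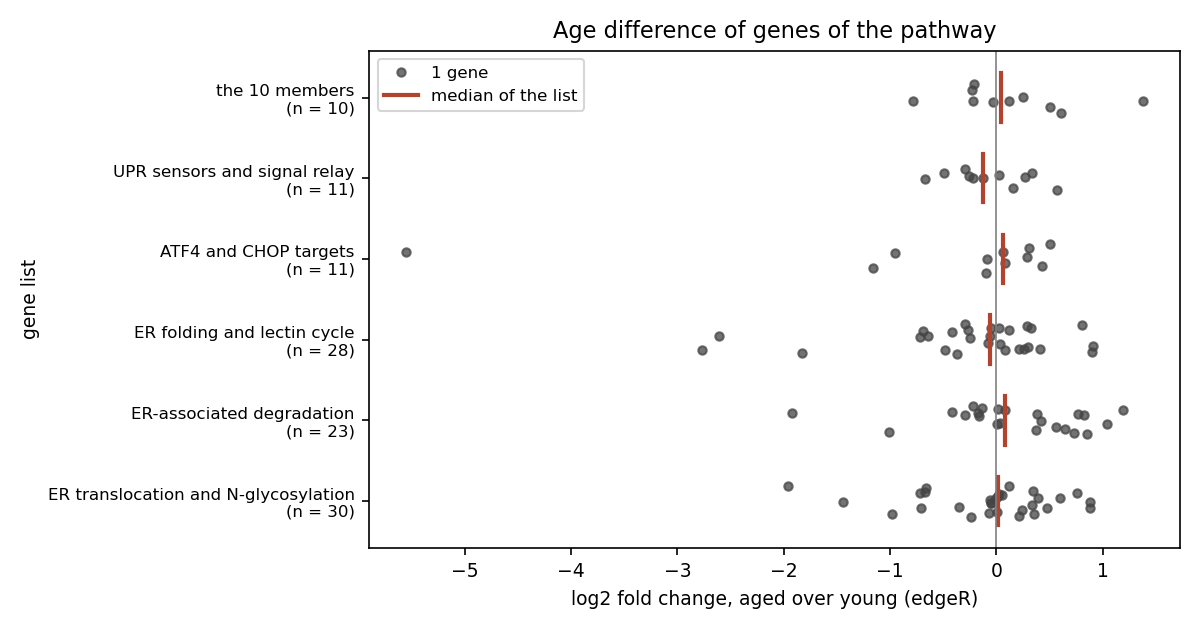
Log2 fold change, aged over young (edgeR), of each tested gene (dots) of the 10 genes described and of the 5 pathway lists, with the median of each list as a red bar. Medians lie between −0.12 and 0.08, and the farthest dot, at −5.55, is Shmt2.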

How the data were processed

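Libraries were made with SMART-seq2, oligo-dT priming and Nextera XT and sequenced as DNA nanoballs, per the labels' protocols; this marks no strand and no molecule, so amplified copies count as separate reads. The protocol speaks of lysing single cells without giving the cells in each library. The authors deposited estimated counts per gene and normalised values with no named unit. These deposited values were taken to be FPKM, since count over value scaled with the library total. The submitters' processing notes list RSEM 1.2.12, DESeq2 1.4.5, Bowtie2 2.2.5 and HISAT2 2.0.4, without roles, and the build GRCm38 (mm10). No source used here names the annotation.

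Counts were rounded and tested with edgeR 4.0.16 (R 4.3.3): TMM, filterByExpr, quasi-likelihood test with robust default estimation, Benjamini-Hochberg adjustment over all tested genes, threshold 0.05. DESeq2 1.42.0, limma 3.58.1 and the other settings were alternatives, and the fit was tested on simulated data. SE were derived from the F statistic. Levels are given in CPM after TMM scaling, with factors from 0.864 to 1.25. Genes and lists were chosen with earlier results of these data known. Beside the 10 genes, the text names from each list the 2 genes of smallest p in each direction and the most abundant one; 1 gene so chosen is not reported here. A planned group of proteins with an ER retrieval signal was not analysed here. Identifiers matched a RefSeq table of GRCm38.p6 for 17244 of 17358 genes, which gave the 1-based coordinates. Every pair of libraries differed by more than sampling noise (lowest chi-square over its degrees of freedom 275.0), which covers counting error only and takes amplified reads as independent.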

Additional observations from a re-analysis of the deposited data

Results flagged for a closer look

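Dixon's test was applied to 64 groups, from the 10 genes and the 22 others named by the rule. In 5 of them 1 library lay far from the rest of its group. In independent groups of normally distributed values, chance marks about 1 group in 20. The test used CPM without a log scale and groups from the same libraries, so that rate need not hold here. Calr in aged library 5 was at 291 normalised CPM, with the other aged libraries between 168 and 200. Ddit3 in young library 1 was at 311, with the others between 62.2 and 110. Eif2s1 in aged library 4 was at 373, against 63.9 to 152 in the other aged libraries. Slc3a2 in young library 3 was at 318, against 240 to 269. Ufd1 in aged library 1 was at 50.8, against 16.3 to 21.0.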

How the results depend on the processing

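The number of genes past the threshold, 1 in the fit reported, was 121 with DESeq2 (64 higher and 57 lower in aged libraries) and 38 with legacy=FALSE (36 and 2). It was 13 with no low-count filter and 3 on log2(FPKM + 1). On leaving out single libraries it was 0 to 75 (75, 61 higher and 14 lower, without aged library 2). Without aged libraries 1, 3 and 4 it was 0, in a fit with only aged libraries 2 and 5 in the aged group. Of the 10 genes 1 passed with DESeq2 and 1 with legacy=FALSE, and 0 to 1 on leaving out single libraries. Of the pathway lists 1 passed with DESeq2. The cause of these shifts was not tested. Without aged libraries 1, 3 and 4 the log2 fold changed sign for Calr (0.03), Herpud1 (0.32), Xbp1 (0.03), Ppp1r15b (−0.68), Eif2s1 (−0.66), Derl2 (−0.13) and Spcs2 (−0.28). On log2(FPKM + 1) it did for Atf4 (−0.01), Ddit3 (0.02) and Eif2s1 (−0.10), and with voom for Ddit3 (0.15) and Eif2s1 (−0.03). On leaving out single libraries, Atf4 ran from −0.11 (without aged library 5) to 0.20, Ddit3 from −0.15 to 0.42 (without young library 1, and 0.09 without aged library 5) and Eif2s1 from −0.37 (without aged library 4) to 0.34. The signs of Dnajb9, Hspa5, Hsp90b1, Canx and Pdia4 held under all 21 alternatives. With the replicate number as a block, 1 gene passed, none of the 10 did, and Atf4 (−0.06) and Ddit3 (0.18) changed sign. Deviations of same-numbered libraries from their group means had correlations from −0.03 to 0.10 over genes. Such correlations cannot exclude a pairing that touches few genes. The median over all tested genes was −0.17 on log2(FPKM + 1), −0.13 with voom and −0.16 with the block, against −0.01.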

Other observations

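The ratio of Dnajb9 to Xbp1 within a library, chosen after the values were seen and given without a test, does not depend on library scaling. In FPKM it was 2.09, 0.72, 6.95, 4.32 and 2.04 in aged libraries 1 to 5 and ran from 0.7 to 1.3 in the 7 young ones. Thus 4 of 5 aged libraries lay above the young range and aged library 2 lay inside it. In aged library 5, Dnajb9 in FPKM (183) lay above all young libraries (84.7 to 166) and Xbp1 (89.8) inside their range (86.6 to 183). In normalised CPM, Dnajb9 (293) was inside the young range there and Xbp1 (173) was the lowest of all 12. Other pairs of the 10 genes were not compared in this way.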
